A study of Mus musculus with 18 samples.

Results

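Endothelial cells line the vessels and the heart, and the transcripts described here are those of 3803 endothelial cell barcodes, 3.60% of the 105556 barcodes with at least 3000 mouse UMIs (unique molecular identifiers, 1 per counted transcript) in 18 libraries of dissociated E8.5 mouse embryos. A cell was a member if it held at least 1 UMI for 4 or more of the 7 endothelial genes Cdh5, Kdr, Pecam1, Tek, Cldn5, Sox18 and Esam, and if the globin transcripts Hbb-y, Hbb-bh1, Hba-x, Hba-a1 and Hba-a2 together made up under 5% of its UMIs. The measured UMIs of these 12 genes therefore chose the cells, and the levels of these genes and the shares of members are given below as descriptions with no test.

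Each library was made from 1 whole embryo of strain 129S4/SvJae at embryonic day 8.5 and counted with the 10x Genomics 3′ chemistry. The embryos were 7 wild types (WT), 3 Dnmt1 knockouts (KO), 4 Dnmt3a KO and 4 Dnmt3b KO, which came from matings of heterozygous parents, and the mutations were carried by the whole embryo. The labels give the embryonic day and no somite number. The study staged these and related embryos by their cell type proportions and reported a minor developmental delay in Dnmt1 KO. Stage and Dnmt1 KO can thus not be told apart here, and the part of stage in the differences was not tested. Dnmt3b KO 1 and Dnmt3b KO 2 shared 204 member barcodes, 84.3% and 79.4% of the members of each, whereas no other pair of libraries shared more than 1. With shared barcodes counted once there were 3599 members among 98063 kept barcodes (3.67%). Both libraries were summed as 1 library, so that 17 libraries entered the tests.

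The first endothelial cells arise from mesodermal progenitors that also give rise to blood, under the control of ETS, GATA and SOX family transcription factors. VEGF signals received by Kdr drive their growth, TIE and Notch signals shape the vessels and separate arteries from veins, and a minority of endothelial cells, the haemogenic endothelium, produces blood progenitors. Dnmt1 copies DNA methylation onto the new strand at replication, whereas Dnmt3a and Dnmt3b place methylation on unmethylated DNA, and in somatic cells methylation is known to keep many germline genes and 1 parental copy of imprinted genes silent.

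Members numbered 41 (WT 5) to 379 (Dnmt3a KO 1) per library and their summed UMIs ran from 1323209 (WT 5) to 14311971 (WT 3). Their share of the kept cells was 4.01% ± 1.03 (SD, n = 7) in WT. The Dnmt1 KO share was 3.89% ± 1.21 (n = 3), that of Dnmt3a KO was 3.67% ± 1.21 (n = 4) and that of Dnmt3b KO was 3.29% ± 0.408 (n = 3, with the shares of Dnmt3b KO 1 and 2 averaged). The lowest share was 1.93% in Dnmt3a KO 2 (95% Clopper-Pearson interval 1.67 to 2.23, which covers counting error only) and the highest was 5.97% in WT 4 (5.24 to 6.77). The shares of the 4 groups overlapped. Cells with 5% globin or more, which could not be members, were unequal parts of the kept cells of the groups. Of the kept cells under 5% globin, members were 4.48% ± 1.07 in WT and 3.94% ± 1.23 in Dnmt1 KO. They were 4.16% ± 1.42 in Dnmt3a KO and 3.63% ± 0.397 in Dnmt3b KO, again with overlap.

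Depth bears on this rule, because a cell with more UMIs has more chances to show 4 markers. Members held a median of 70075 UMIs in Dnmt1 KO 3, where all kept cells held 13415, and 26441 in Dnmt3a KO 2, where all kept cells held 7289. When every cell was first thinned to 3000 UMIs, members made up 1.14% ± 0.338 of the WT cells, 0.582% ± 0.290 of the Dnmt1 KO cells, 1.04% ± 0.388 of the Dnmt3a KO cells and 0.911% ± 0.192 of the Dnmt3b KO cells. The thinned shares of the 3 Dnmt1 KO libraries were 0.594%, 0.865% and 0.286% against 0.757% to 1.79% in WT, so that 1 of the 3 lay within the WT range.

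**Figure D1:**
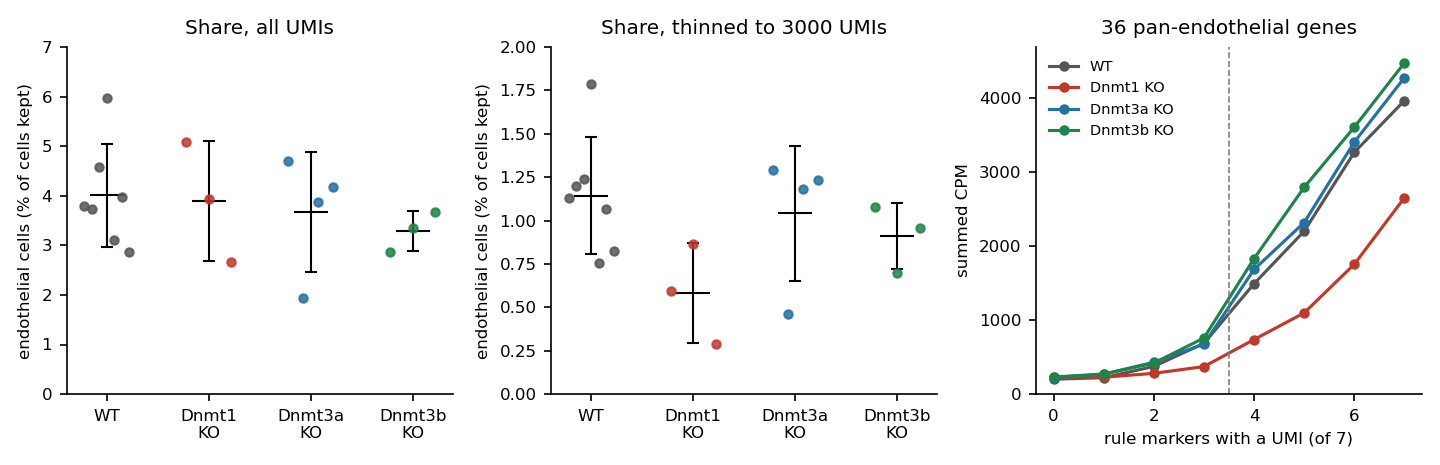
Left and middle, endothelial cells as a percentage of kept cells in each library (points), with the mean and SD over libraries, from all UMIs and after thinning to 3000 UMIs per cell. Right, summed level of 36 endothelial genes that the rule did not use, in CPM pooled over the cells of a group, by the number of rule markers with a UMI, where the dashed line marks the limit for membership. Dnmt1 KO lies below the other 3 groups at every number of markers from 4 to 7.

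The label was checked against 36 pan-endothelial genes outside the rule, such as Emcn, Tie1, Erg and Egfl7. Their summed level rose with the number of markers: pooled over all libraries it was 640 CPM (UMIs per 1000000 UMIs of the cells summed) in the 1354 cells just outside the rule, with 3 markers, 1516 CPM in the 706 cells just inside, with 4, and 4000 CPM in the 1666 members with all 7. An Emcn UMI was present in 53.5% of WT members (38.3% to 61.0% over libraries) and in 0.65% of WT cells with 5% globin or more, whose libraries had median depths of 17446 to 64307 UMIs against 11589 to 57310 in the members. The members of WT embryos thus carried the endothelial genes that the rule had not used.

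Of the rule markers, Kdr, the main VEGF receptor, was at 247 to 384 CPM in the WT members and at 387, 377 and 282 CPM in Dnmt1 KO. Sox18, a transcription factor of vessel formation, was at 106 to 183 CPM in WT and at 56.2, 43.5 and 35.1 CPM in Dnmt1 KO. Summed over the 7 markers, the level was 1059 to 1269 CPM in WT, 653 to 979 CPM in Dnmt1 KO, 1057 to 1255 CPM in Dnmt3a KO and 1089 to 1295 CPM in Dnmt3b KO. The Dnmt1 KO members were thus below all WT libraries in the summed markers, while Kdr overlapped.

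Most members also held marker transcripts of other cell classes. By their Scrublet scores 335 members (8.81%) were flagged as doublets. The share flagged among all kept cells, 5.89%, was set beforehand by the number of cells in each library. It was 6.73% of the kept cells in WT 1 and 1.19% in Dnmt1 KO 1, so doublets were flagged unequally between groups. UMIs for at least 3 markers of another cell class were held by 2815 members (74%), against 89.6% of all kept cells, which include cells of those classes. The share was 72.7% of WT members, at a median of 35730 UMIs, and 85.7% of Dnmt1 KO members, at 48311 UMIs. Erythroid genes other than globins summed to 3.02 to 53.6 CPM in WT and 92.6 to 133 CPM in Dnmt1 KO, with no overlap. The 12 macrophage genes summed to 42.5 to 101 CPM in WT and 32.1 to 49.3 CPM in Dnmt1 KO, with C1qa and Adgre1 at 0 in all 17 libraries, and the 10 trophoblast genes to 138 to 184 CPM and 98.5 to 179 CPM, with Tpbpa at 0. Extraembryonic endoderm genes summed to 51.4 to 1425 CPM in WT and 36.1 to 331 CPM in Dnmt1 KO. The 12 mesenchymal genes summed to 174 to 338 CPM in WT and 137 to 167 CPM in Dnmt1 KO, and the 10 neuroectodermal genes to 70.8 to 162 CPM and 50.5 to 61.4 CPM, both without overlap and with no gene at 0 in all libraries.

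The targeted genes were examined first, to check the labels. Dnmt1 stood at 99.8 to 133 CPM (median 124) in WT members and at 18.5, 18.6 and 23 CPM in the 3 Dnmt1 KO libraries (log2 fold change -2.46 ± 0.14 (SE), adjusted p = 9.49e-10). Dnmt3a was at 36 to 58.2 CPM (median 46.2) in WT and at 16.6, 16, 14.1 and 21.3 CPM in Dnmt3a KO 1, 2, 13 and 14 (log2 fold change -1.45 ± 0.28 (SE), adjusted p = 0.0424, which misses the 1% threshold used here), and the groups did not overlap. Dnmt3b was at 48.3 to 64.8 CPM (median 58.9) in WT and at 61.7, 55.5 and 85.6 CPM in Dnmt3b KO 1+2, 11 and 12, so the transcript was not lower than in WT. The deleted part of the gene is not given in the sources used here, and 3′ tags outside it check nothing, so the Dnmt3b KO labels were not checked by this level.

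The library labelled Dnmt3b KO 12 stood apart. Its Dnmt3a level was 10.0 CPM, below the 4 Dnmt3a KO libraries, and its Dnmt3b level was above all WT libraries. Dnmt3a was at 59.0 CPM in Dnmt3b KO 1+2 and at 29.8 CPM in Dnmt3b KO 11, the latter also below all WT libraries. Whether the genotype is as labelled was not settled by these values, and the called Dnmt3b changes are given with and without this library below.

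Counts were summed over the members of each embryo, and each KO group was compared with WT by the quasi-likelihood test of edgeR. A gene passed the test, and is called higher or lower, where its Benjamini-Hochberg adjusted p was under 0.01 and its log2 fold change (KO against WT) was 1 or more in size. Nothing in the labels says whether embryos shared a litter. The Y-linked genes put 1 of 7 WT embryos, 3 of 3 Dnmt1 KO, 4 of 4 Dnmt3a KO and 2 of 3 Dnmt3b KO embryos, with 1 and 2 counted once, above 10 CPM, so that sex and group were largely confounded.

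In Dnmt1 KO endothelial cells, 500 of 12753 genes were higher (3.92%) and 606 were lower (4.75%). Among them, 12 of 36 pan-endothelial genes were lower and 6 of 19 blood progenitor genes were higher, and the most marked increases were those of germline genes. In Dnmt3a KO 8 genes were higher (0.0627%) and 0 were lower (0%), and in Dnmt3b KO 86 were higher (0.674%) and 1 was lower (0.00784%). At an unadjusted p under 0.05 the counts were 5284, 717 and 1537, and DESeq2 called 1133, 20 and 116 genes.

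Of the 36 pan-endothelial genes, 12 were lower in Dnmt1 KO members and 0 were higher, 33.3% against the 4.75% of all genes that were lower. The median log2 fold change was -0.86 against 0.00 over all 12753 genes, and 24 of the 36 lay below every WT library in all 3 Dnmt1 KO libraries, against 20.2% of all genes. The 12 were Emcn, Sox17, Plvap, Icam2, Mmrn2, Cd93, Thsd1, Clec14a, Adgrl4, Gpr182, Vwf and Cyyr1, most of which encode surface proteins of the vessel lining. The median was -0.59 with members chosen on thinned counts, where Dnmt1 KO 2, with 27 such cells, was the only Dnmt1 KO library left. It was -0.64, with 9 genes lower, without Dnmt1 KO 3. The fit on thinned counts called far fewer genes over all genes too. The counts of list genes that passed on thinned counts, given below, are thus no result about the lists.

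Emcn, which encodes the endothelial sialoglycoprotein endomucin, had the largest difference of the list. The GENCODE model of the gene lies at chr3:137341067-137432185 on the plus strand of GRCm38, the build of the files. Its level was 37.7 to 126 CPM (median 64.5) in WT and 4.26, 0.9 and 0 CPM in Dnmt1 KO 1, 2 and 3 (log2 fold change -5.14 ± 0.57 (SE), adjusted p = 2.95e-06). Every Dnmt1 KO library was far below every WT library. An Emcn UMI was seen in 53.5% of WT members and in 6.28% of Dnmt1 KO members (0% to 15.6%), and with both thinned to 3000 UMIs in 18.1% and 0.67%.

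The 250 bases before the RefSeq start of Emcn are shown to set a gene whose transcript was near 0 in Dnmt1 KO beside the germline genes below. They are the RefSeq sequence of GRCm38.p6, chr3:137340828-137341077 on the plus strand, written 5′ to 3′ with the CG pairs, where methylation is placed, in capitals. They hold 1 CG pair at 40.8% G and C. The stretch ends just past the GENCODE start given above, and the CG pair lies in that overlap.
Emcn: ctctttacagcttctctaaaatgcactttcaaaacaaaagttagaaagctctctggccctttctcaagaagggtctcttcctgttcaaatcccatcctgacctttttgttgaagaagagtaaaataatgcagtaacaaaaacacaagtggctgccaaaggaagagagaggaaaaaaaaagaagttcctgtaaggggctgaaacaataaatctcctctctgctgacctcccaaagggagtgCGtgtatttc

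Cd93, a transmembrane receptor of endothelial cells, was at 35.3 to 50.5 CPM (median 44.4) in WT and 9.24, 7.41 and 5.84 CPM in Dnmt1 KO (log2 fold change -2.38 ± 0.19 (SE), adjusted p = 6.98e-08). Icam2, an adhesion molecule for leukocytes, was at 105 to 180 CPM (median 133) in WT and 46, 39.4 and 21.1 CPM in Dnmt1 KO (log2 fold change -1.77 ± 0.24 (SE), adjusted p = 2.68e-05). Mmrn2, a matrix protein that binds Cd93 at the vessel wall, was at 20.9 to 26.9 CPM (median 23.4) in WT and 9.6, 6.5 and 5.64 CPM in Dnmt1 KO (log2 fold change -1.58 ± 0.15 (SE), adjusted p = 5.98e-07). For each of these genes the highest Dnmt1 KO library lay below the lowest WT library. Clec14a, another receptor of this surface, was more variable, at 5.05 to 60.03 CPM (median 12.5) in WT and 1.42, 1.08 and 0 CPM in Dnmt1 KO (log2 fold change -4.44 ± 0.99 (SE), adjusted p = 0.00244), and it missed the adjusted p threshold without any 1 Dnmt1 KO library.

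Some endothelial genes differed less. Tie1, an orphan receptor of the TIE family, was at 29.97 to 45.3 CPM (median 39.5) in WT and 24.7, 27.1 and 21.1 CPM in Dnmt1 KO (log2 fold change -0.56 ± 0.19 (SE), adjusted p = 0.0347), without overlap but below the size threshold. The ETS factors Fli1 and Erg, named here after their values were seen, had log2 fold changes of -0.34 and 0.72 (adjusted p = 0.115 and 0.064). Fli1 was at 136, 133 and 77.8 CPM in Dnmt1 KO against 121 to 201 CPM (median 165) in WT, and the groups overlapped, as they did for Erg.

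The level of the 36 genes was also taken by the number of rule markers, as a description. Depth differed within these classes, at a median of 40651 UMIs in Dnmt1 KO against 16075 in WT with 4 markers and 58647 against 45523 with 7. A deeper cell shows the same number of markers at a lower level of them, so cells with equal numbers are not matched on the marker level. In members with all 7 markers the 36 genes summed to 3491 to 4605 CPM over WT libraries and to 1861 to 3104 CPM over Dnmt1 KO libraries, and in those with 4 markers to 950 to 2061 CPM and 609 to 871 CPM. The ranges did not overlap at 4, 6 or 7 markers, and at 5 markers they did, at 1305 to 3169 CPM in WT and 952 to 1490 CPM in Dnmt1 KO. With at least 6 markers required, an alternative added after the data had been seen, 11 of the 36 were lower, and with doublets left out 16 were.

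**Figure D2:**
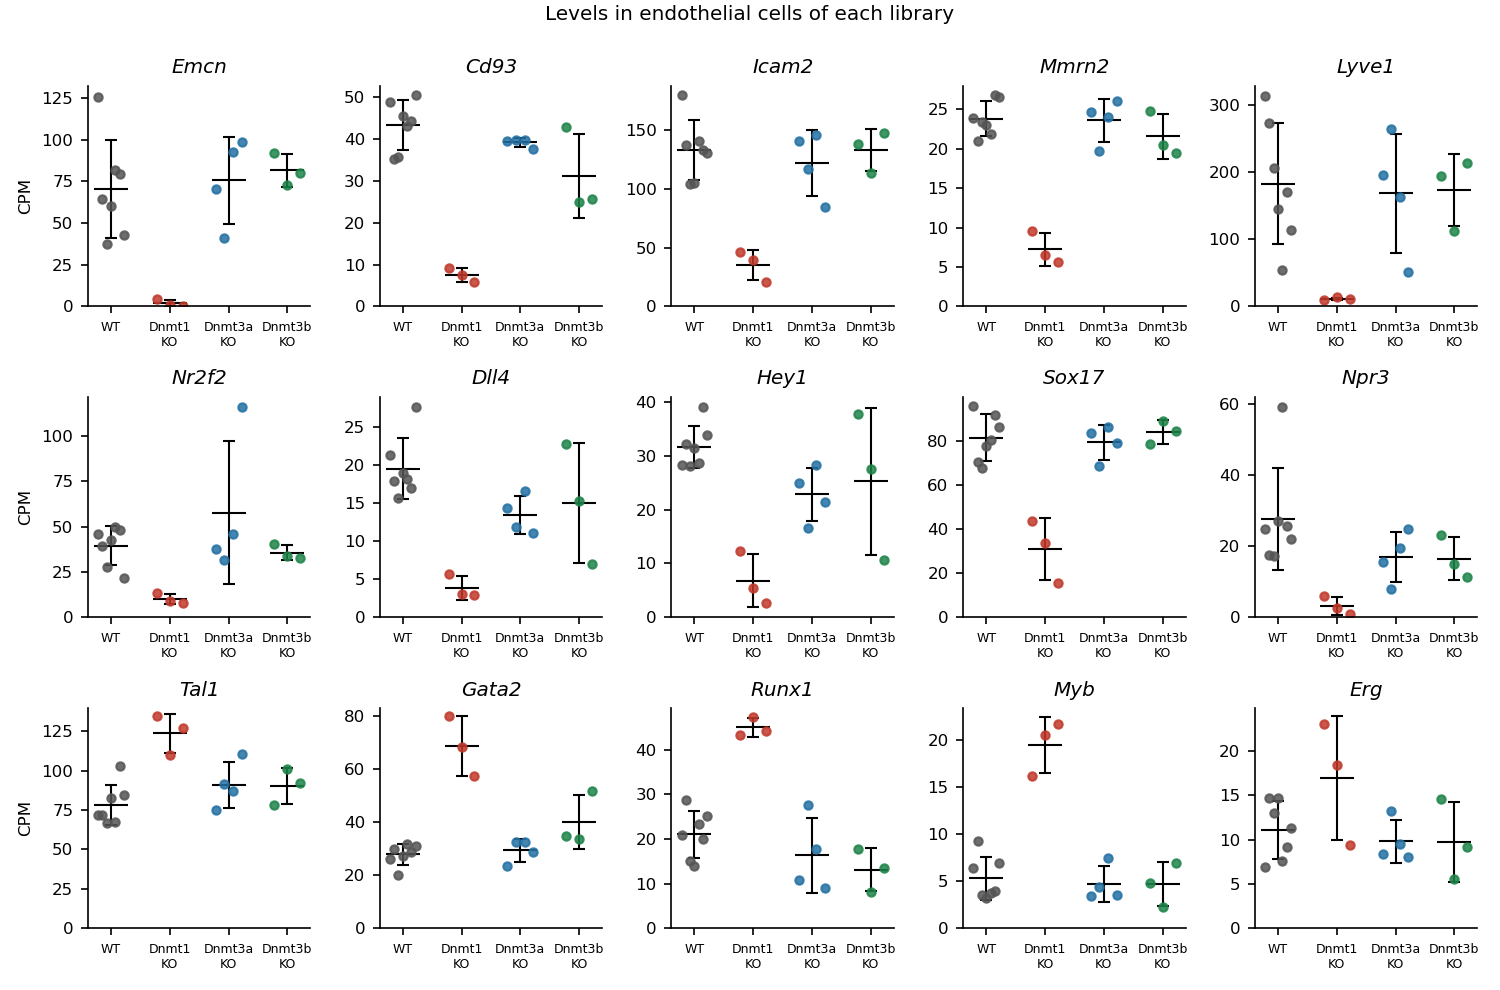
Level of 15 genes in the endothelial cells of each library (points, CPM on a linear axis from 0), with the mean and SD over the libraries of a group. Emcn, Cd93, Icam2, Mmrn2, Lyve1, Nr2f2, Dll4, Hey1, Sox17 and Npr3 lie lower in all 3 Dnmt1 KO libraries than in every WT library, Tal1, Gata2, Runx1 and Myb lie higher, and Erg overlaps.

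Among 21 tested regulators of haemangioblast and endothelial fate, Gata2 was higher and Elk3, Foxc1, Foxc2 and Hoxa9 were lower (median -0.58), 4.76% and 19% against the 3.92% and 4.75% of all genes. Gata2, a zinc finger factor of early blood and endothelium, was at 20.1 to 31.7 CPM (median 28.7) in WT and 79.96, 68.3 and 57.4 CPM in Dnmt1 KO (log2 fold change 1.46 ± 0.15 (SE), adjusted p = 1.38e-06). Tal1, which acts with Gata2 in blood formation, was at 66.6 to 103 CPM (median 72.1) in WT and 134, 110 and 127 CPM in Dnmt1 KO, where its increase of 0.79 on the log2 scale was below the size threshold (adjusted p = 0.000148). All Dnmt1 KO libraries lay above all WT libraries for both genes. Elk3, an ETS factor, was at 42.8, 41.7 and 29 CPM in Dnmt1 KO against 72 to 101 CPM (median 90.8) in WT (log2 fold change -1.06 ± 0.13 (SE), adjusted p = 6.91e-06). Hoxa9, a posterior Hox gene, was at 1.24, 1.45 and 2.09 CPM in Dnmt1 KO against 6.62 to 31.6 CPM (median 20.2) in WT (log2 fold change -3.63 ± 0.56 (SE), adjusted p = 8.87e-05). On thinned counts 0 regulators passed, and without Dnmt1 KO 3 the log2 fold change of Elk3 was -0.93.

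Of 10 tested VEGF ligands and receptors, Vegfc and Nrp2 were lower and 0 were higher (median -0.59), 20% against the 4.75% of all genes that were lower. Vegfc, a ligand of lymphatic and venous growth, was at 8.31 to 16.5 CPM (median 13.2) in WT and 1.78, 1.26 and 2.92 CPM in Dnmt1 KO (log2 fold change -2.64 ± 0.31 (SE), adjusted p = 5.63e-06). Nrp2, a co-receptor for it, was at 60.1 to 108 CPM (median 85.4) in WT and 38, 28.5 and 34.2 CPM in Dnmt1 KO (log2 fold change -1.12 ± 0.20 (SE), adjusted p = 0.000298). Neither gene overlapped between the groups. The receptors Flt4 (log2 fold change -0.81 ± 0.18 (SE), adjusted p = 0.00196) and Flt1 (log2 fold change -0.55 ± 0.16 (SE), adjusted p = 0.0139) did not pass. On thinned counts 0 genes of this pathway passed.

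None of the 6 genes of the angiopoietin and TIE pathway passed (median -0.39), where 3.92% of all genes were higher and 4.75% lower. Angpt1, the ligand of Tek, was at 1.42, 1.08 and 1.67 CPM in Dnmt1 KO against 1.92 to 6.97 CPM (median 3.49) in WT (log2 fold change -1.30 ± 0.47 (SE), adjusted p = 0.0419). Foxo1, a transcription factor held in check by Tek signalling, had a log2 fold change of -0.68, and Ptprb, the phosphatase that acts on Tek, one of 0.28.

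Of 20 tested Notch and arterial genes, 9 were lower and 0 were higher (median -1.04), 45% against the 4.75% of all genes that were lower. They were Notch4, Dll4, Jag1, Hey1, Hey2, Efnb2, Sox17, Cxcr4 and Gja1. The ligand Dll4 was at 15.7 to 27.7 CPM (median 18.1) in WT and 5.69, 3.07 and 2.92 CPM in Dnmt1 KO (log2 fold change -2.18 ± 0.33 (SE), adjusted p = 7.9e-05), and the Notch target Hey1 was at 28 to 39 CPM (median 31.5) and 12.3, 5.42 and 2.71 CPM (log2 fold change -2.06 ± 0.36 (SE), adjusted p = 0.000336). Sox17, an arterial transcription factor, was at 67.5 to 95.8 CPM (median 80.1) in WT and 43.5, 33.4 and 15.7 CPM in Dnmt1 KO (log2 fold change -1.26 ± 0.21 (SE), adjusted p = 0.000165). The groups did not overlap for these 3 genes. The receptor Notch4 was at 1.51 to 10.1 CPM (median 7.31) in WT and 2.13, 0.9 and 0.63 CPM in Dnmt1 KO, with overlap (log2 fold change -2.40 ± 0.43 (SE), adjusted p = 0.000343). Without Dnmt1 KO 3 the count of lower genes was 4, Sox17 being at -0.97, and on thinned counts 1.

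Of 12 venous and lymphatic genes, Nr2f2, Nrp2, Lyve1 and Stab2 were lower and 0 were higher (median -0.93), 33.3% against the 4.75% of all genes. Lyve1, a hyaluronan receptor of early endothelium and lymphatics, varied widely in WT, at 53.7 to 313 CPM (median 171), and was at 9.95, 13.4 and 10.6 CPM in Dnmt1 KO (log2 fold change -3.90 ± 0.57 (SE), adjusted p = 5.68e-05). Nr2f2, the transcription factor of venous identity, was at 21.4 to 49.9 CPM (median 42.7) in WT and 13.1, 9.21 and 7.72 CPM in Dnmt1 KO (log2 fold change -1.81 ± 0.36 (SE), adjusted p = 0.000938). Both were lower in every Dnmt1 KO library than in every WT library. The venous receptor Ephb4 changed by -0.97, just under the size threshold (adjusted p = 0.000825). The count of lower genes was 1 on thinned counts and 2 with the Y-linked covariate.

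Of 19 tested BMP and TGF-beta pathway genes, Tgfbr2 (log2 fold change -1.29 ± 0.21 (SE), adjusted p = 0.000133) and Tmem100 (log2 fold change -2.64 ± 0.44 (SE), adjusted p = 0.000213) were lower and 0 were higher (median -0.37), 10.5% against the 4.75% of all genes and 1 gene on thinned counts. Tgfbr2 is a TGF-beta receptor and Tmem100 a membrane protein induced by BMP signals in endothelium. The co-receptor Eng, at 42.3, 38.3 and 28 CPM against 48.3 to 94.5 CPM (median 62.8) in WT, and the ligand Tgfb1, at 79.3, 57.1 and 54.7 CPM against 91 to 131 CPM (median 123), did not reach a log2 fold change of 1. Of 11 endocardial genes, Npr3, Plxnd1, Tmem100 and Vwf were lower (median -0.47), 36.4% against the same 4.75%. Npr3, a natriuretic peptide receptor of the endocardium, was at 17.2 to 58.9 CPM (median 24.7) in WT and 6.04, 2.53 and 1.04 CPM in Dnmt1 KO (log2 fold change -2.83 ± 0.47 (SE), adjusted p = 0.000195). Plxnd1, a semaphorin receptor, was at 65.2 to 102 CPM (median 84) and 30.6, 27.3 and 17.5 CPM (log2 fold change -1.61 ± 0.21 (SE), adjusted p = 2.06e-05), without overlap. Vwf, the carrier of a clotting factor, overlapped between the groups (log2 fold change -1.59 ± 0.42 (SE), adjusted p = 0.0073) and missed the threshold without any 1 Dnmt1 KO library and without any 1 of WT 1, 2, 4, 6 and 7. On thinned counts 0 endocardial genes were lower, at a median of -1.43, and the count was 3 without any 1 Dnmt1 KO library.

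Of 12 genes of angiogenic sprouting, Apln, Esm1, Cxcr4, Plaur, Cd276 and Lamb1 were lower (median -1.11), 50% against the 4.75% of all genes. Apln, a peptide of sprouting tip cells, was at 7.56 to 33.8 CPM (median 21.8) in WT and 4.98, 4.34 and 6.05 CPM in Dnmt1 KO (log2 fold change -2.01 ± 0.35 (SE), adjusted p = 0.000265). Plaur, the urokinase receptor, was at 12 to 19.98 CPM (median 14.9) and 3.55, 0.9 and 3.55 CPM (log2 fold change -2.39 ± 0.35 (SE), adjusted p = 5.86e-05), and Cd276 had a log2 fold change of -1.27 (adjusted p = 0.000107). Of 17 basement membrane and matrix genes 7 were lower, and all 17 had a log2 fold change below 0 (median -0.91), with 41.2% lower against 4.75%. Mesenchymal marker genes moved the same way in these members, with a summed level of 174 to 338 CPM in WT and 137 to 167 CPM in Dnmt1 KO and 12 of 12 log2 fold changes below 0, 2 of them past the test. Their part in the matrix result was not tested. Vim, the intermediate filament of mesenchymal and endothelial cells, was at 1035 to 1415 CPM (median 1203) in WT and 599, 544 and 356 CPM in Dnmt1 KO (log2 fold change -1.17 ± 0.17 (SE), adjusted p = 4.97e-05), and the matrix proteoglycan Bgn was at 12.7 to 28.5 CPM (median 21.3) and 8.17, 2.89 and 1.25 CPM (log2 fold change -2.17 ± 0.36 (SE), adjusted p = 0.000176). Col4a1 (-0.95) and Hspg2 (-0.91), the collagen and the perlecan of the basement membrane, fell short of the size threshold. On thinned counts 0 sprouting and 2 matrix genes were lower, and without Dnmt1 KO 3 the counts were 4 and 3, and Vim missed the size threshold.

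In contrast, of 19 tested genes of haemogenic endothelium and blood progenitors, Runx1, Gfi1b, Gata1, Gata2, Myb and Ikzf2 were higher in Dnmt1 KO and 0 were lower (median 0.79), 31.6% against the 3.92% of all genes that were higher. Runx1, the factor required for blood to emerge from endothelium, was at 14 to 28.7 CPM (median 20.9) in WT and 43.4, 47.3 and 44.2 CPM in Dnmt1 KO (log2 fold change 1.26 ± 0.28 (SE), adjusted p = 0.00225). Gfi1b, a repressor of the endothelial programme downstream of Runx1, was at 0.77 to 8.17 CPM (median 3.72) and 22, 25.8 and 26.3 CPM (log2 fold change 2.47 ± 0.60 (SE), adjusted p = 0.00446), and both were named after their values were seen. Myb, a factor of blood progenitors, was at 3.23 to 9.32 CPM (median 3.93) in WT and 16.2, 20.6 and 21.7 CPM in Dnmt1 KO (log2 fold change 2.01 ± 0.33 (SE), adjusted p = 0.000161). Ikzf2, a zinc finger factor of the Ikaros family, was at 9.82 to 17.4 CPM (median 15.4) and 31.6, 27.8 and 35.9 CPM (log2 fold change 1.31 ± 0.18 (SE), adjusted p = 2.54e-05). None of the 4 overlapped between WT and Dnmt1 KO, where 8.89% of all genes lay above every WT library in every Dnmt1 KO library.

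Erythroid genes moved with this list. Gata1, which both lists hold, was at 0 to 9.61 CPM (median 4.57) in WT and 16, 19.2 and 31.9 CPM in Dnmt1 KO (log2 fold change 2.38 ± 0.58 (SE), adjusted p = 0.00462). Klf1, a regulator of globin genes, was at 0.43 to 6.27 CPM (median 1.88) and 6.93, 5.6 and 8.77 CPM with overlap (log2 fold change 1.96 ± 0.49 (SE), adjusted p = 0.00557), and Epb42 (2.96) and Cited4 (2.27) were higher too, 4 of 8 tested (50% against the 3.92% of all genes). Of the kept cells, 4366 of 33478 in WT and 65 of 7079 in Dnmt1 KO held 5% globin or more and were not members. The globin limit thus removed unequal parts of the 2 groups. The part of this limit and of erythroid transcripts in the blood progenitor result was not tested. Of the other lists, 0 of 8 megakaryocyte, 0 of 7 macrophage and 0 of 9 cardiomyocyte genes passed in either direction. The genes of further classes that passed, named after their values were seen, were Elf5, Rhox9, Rhox6 and Ascl2 of 9 trophoblast genes and Trh of 10 epithelial genes, which were higher, and Tbx4 and Pitx1 of 12 mesenchymal genes and Sox1 of 10 neuroectodermal genes, which were lower. The shares higher were 44.4% and 10% against 3.92% of all genes, and those lower were 16.7% and 10% against 4.75%. Each 10% was 1 gene. The count of higher blood progenitor genes was 6 with doublets left out, 2 with a covariate for the Y-linked level, 0 on thinned counts and 3 without Dnmt1 KO 2 or without Dnmt1 KO 3. Runx1 missed the adjusted p threshold without Dnmt1 KO 2 (1.22) or 3 (1.24), as did Gata1 (2.48 and 2.0), and Gfi1b, Klf1 and Cited4 missed it without any 1 Dnmt1 KO library. They also missed it without WT 6, Cited4 and Klf1 without WT 3 and Klf1 without WT 1. Leaving out doublets removed only 0, 6 and 2 members of Dnmt1 KO 1, 2 and 3, so it says little about doublets in that group.

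The largest differences were those of germline genes, which act in meiosis, in piRNA silencing of transposons and in sperm. Of 46 listed, 35 passed the filter on low counts, and 31 of these were higher in Dnmt1 KO members and 0 were lower. The share was 88.6% against the 3.92% of all genes that were higher. Because such genes pass the filter through the libraries where they are high, this count describes them and supports nothing. The median log2 fold change of the 35 was 6.17, or 5.83 with genes at 0 UMIs in every WT library set to the lower bound that 3 UMIs over the WT group give. All 46 listed genes together summed to 49.8 to 68.7 CPM in WT, 732 to 759 CPM in Dnmt1 KO, 95.4 to 143 CPM in Dnmt3a KO and 190 to 1017 CPM in Dnmt3b KO, so that every KO library lay above every WT library.

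**Figure D3:**
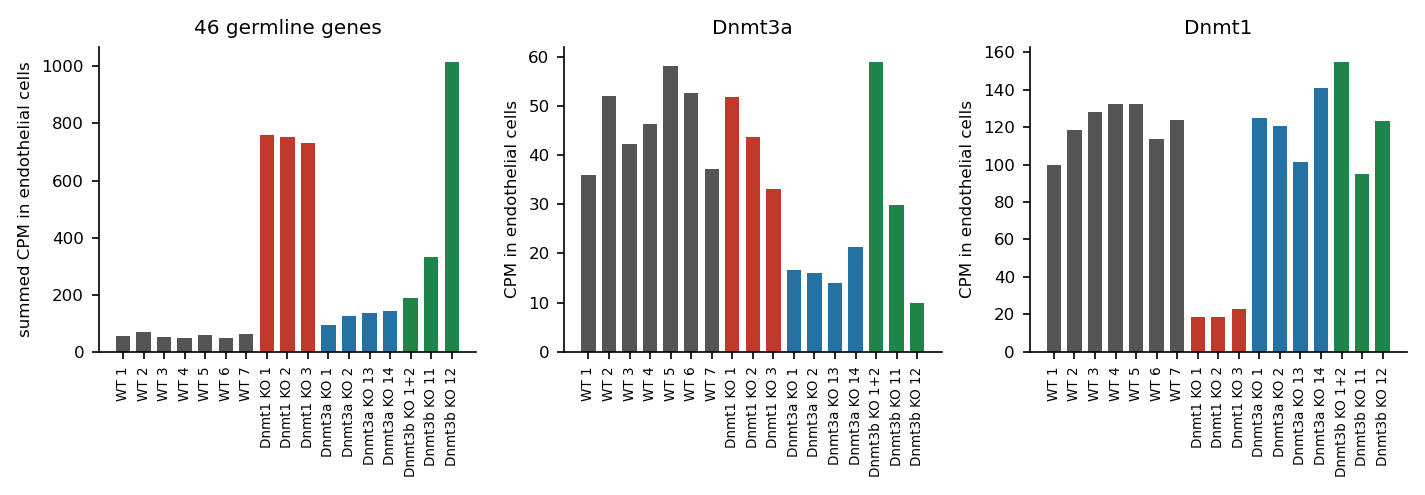
Summed level of 46 germline genes, level of Dnmt3a and level of Dnmt1 in the endothelial cells of each of 17 libraries (bars, CPM, axes from 0). Germline genes are highest in the library labelled Dnmt3b KO 12 (1017 CPM) and the 3 Dnmt1 KO libraries, and Dnmt3a is lowest in the library labelled Dnmt3b KO 12 (10.0 CPM).

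Sycp1, a component of the synaptonemal complex, was at 0 to 0.29 CPM (median 0.085) in WT and 57.6, 67.4 and 58.9 CPM in Dnmt1 KO (log2 fold change 9.42 ± 0.52 (SE), adjusted p = 5.69e-10). Rpl39l, a ribosomal protein paralogue of the testis whose tags could be shared with Rpl39 copies, was at 0 to 6.02 CPM (median 2.47) in WT and 198, 180 and 177 CPM in Dnmt1 KO (log2 fold change 6.37 ± 0.42 (SE), adjusted p = 5.06e-09). Sohlh2, a germline transcription factor outside the list, had 0 UMIs in all WT members and was at 23.5, 27.1 and 24 CPM in Dnmt1 KO, at least 499-fold higher. These transcripts were near or at 0 in WT and present in every Dnmt1 KO library.

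The other genes with the largest increases were likewise near 0 in WT. Trim5, a restriction factor against retroviruses, was at 41.9, 34 and 54.3 CPM in Dnmt1 KO (9.20 on the log2 scale), and Asz1, of the piRNA pathway, at 23.6, 18.4 and 24 CPM (7.33). The X-linked genes Tex13b (10.30), Rhox13 (9.56) and Usp26 (7.82), the testis ribosomal protein Rpl10l (8.84) and the unnamed gene AC159200.1 (9.45) behaved alike, and tags of Rhox13 and Rpl10l could be shared with related copies. WT members held 1 UMI of Tex13b, Rhox13 and Rpl10l each and 2 of AC159200.1, so that the lower 95% exact limits of their ratios of pooled UMIs, for counting error only, were 388, 231, 139 and 252. Of the 500 higher genes 12.6% were on the X chromosome, against 3.83% of the genes tested.

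In all 3 comparisons, which share the WT libraries, 7 genes were higher: Stk31, Tex19.1 and Tex15 of the germline list, and Fbp2, Rec114, Slc9b1 and Xlr. The first 3 were named outside the rule in the comparisons where it did not pick them. Stk31, a kinase of the germline granule, was at 0 to 0.35 CPM (median 0.14) in WT, at 4.44, 3.79 and 4.17 CPM in Dnmt1 KO, at 1.53, 4.37, 3.7 and 3.22 CPM in Dnmt3a KO and at 1.42, 3.23 and 6.35 CPM in Dnmt3b KO, with log2 fold changes of 4.64, 4.09 and 4.31. Tex19.1, which guards germ cells against transposons, was at 0 to 2.44 CPM (median 0.85) in WT, at 94.9, 99.5 and 87.9 CPM in Dnmt1 KO, at 6.94, 19.09, 16.2 and 12.6 CPM in Dnmt3a KO and at 14.5, 30.7 and 126 CPM in Dnmt3b KO (6.80, 3.84 and 5.93, the last 4.64 without the library labelled Dnmt3b KO 12). Tex15, a partner of piRNA-directed methylation, was at 0.76 to 2.79 CPM (median 1.43) in WT, at 16.2, 24.9 and 23.2 CPM in Dnmt1 KO, at 11.9, 11.8, 9.09 and 13 CPM in Dnmt3a KO and at 8.71, 7.92 and 8.61 CPM in Dnmt3b KO (3.62, 2.55 and 2.13). No KO library overlapped WT for any of the 3.

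The RefSeq promoters of the first 2, 250 bases before the RefSeq start on GRCm38.p6, are shown because these genes passed in every KO group. The CG pairs are in capitals, and both are on the plus strand, at chr6:49395289-49395538 for Stk31 and chr11:121145893-121146142 for Tex19.1. The stretch of Stk31 ends short of its GENCODE start, and the bases at its RefSeq start were in no GENCODE transcript of the gene, whereas that of Tex19.1 ends just before the GENCODE start.
Stk31: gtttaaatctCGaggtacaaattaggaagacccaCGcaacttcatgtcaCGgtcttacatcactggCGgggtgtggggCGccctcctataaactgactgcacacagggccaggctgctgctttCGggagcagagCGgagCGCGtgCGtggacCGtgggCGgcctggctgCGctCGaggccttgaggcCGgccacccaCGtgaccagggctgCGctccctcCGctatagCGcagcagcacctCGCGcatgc
Tex19.1: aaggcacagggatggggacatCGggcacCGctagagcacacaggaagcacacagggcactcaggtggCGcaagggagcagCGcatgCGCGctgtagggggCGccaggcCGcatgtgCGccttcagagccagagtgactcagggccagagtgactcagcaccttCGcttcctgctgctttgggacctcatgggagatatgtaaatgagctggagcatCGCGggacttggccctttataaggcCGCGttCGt

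The Stk31 promoter held 21 CG pairs at 63.6% G and C and the Tex19.1 promoter 15, against the 1 of Emcn and a median of 6 over 27025 promoters. Of the 31 germline genes higher in Dnmt1 KO, 28 had an entry, with a median of 14.5 CG pairs. The promoters of genes tested had a median of 16. Motifs of 3 kinds, any pair of which can share at most 1 base, were searched on both strands. The letters CACGTG were in 10 of the 28 (35.7%), Stk31 among them, in 6.05% of all promoters and in 8.56% of those of genes tested. The same shares for GCGGGAA were 7 of the 28 (25%), 3.84% and 7.20%. For the ETS-like letters CCGGAAGT they were 0 of the 28, 2.93% and 6.14%. The 19 pan-endothelial genes with an entry had a median of 5 CG pairs, and held the motifs 0, 1 and 0 times in that order. These matches describe the letters of the sequence only.

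**Figure D4:**
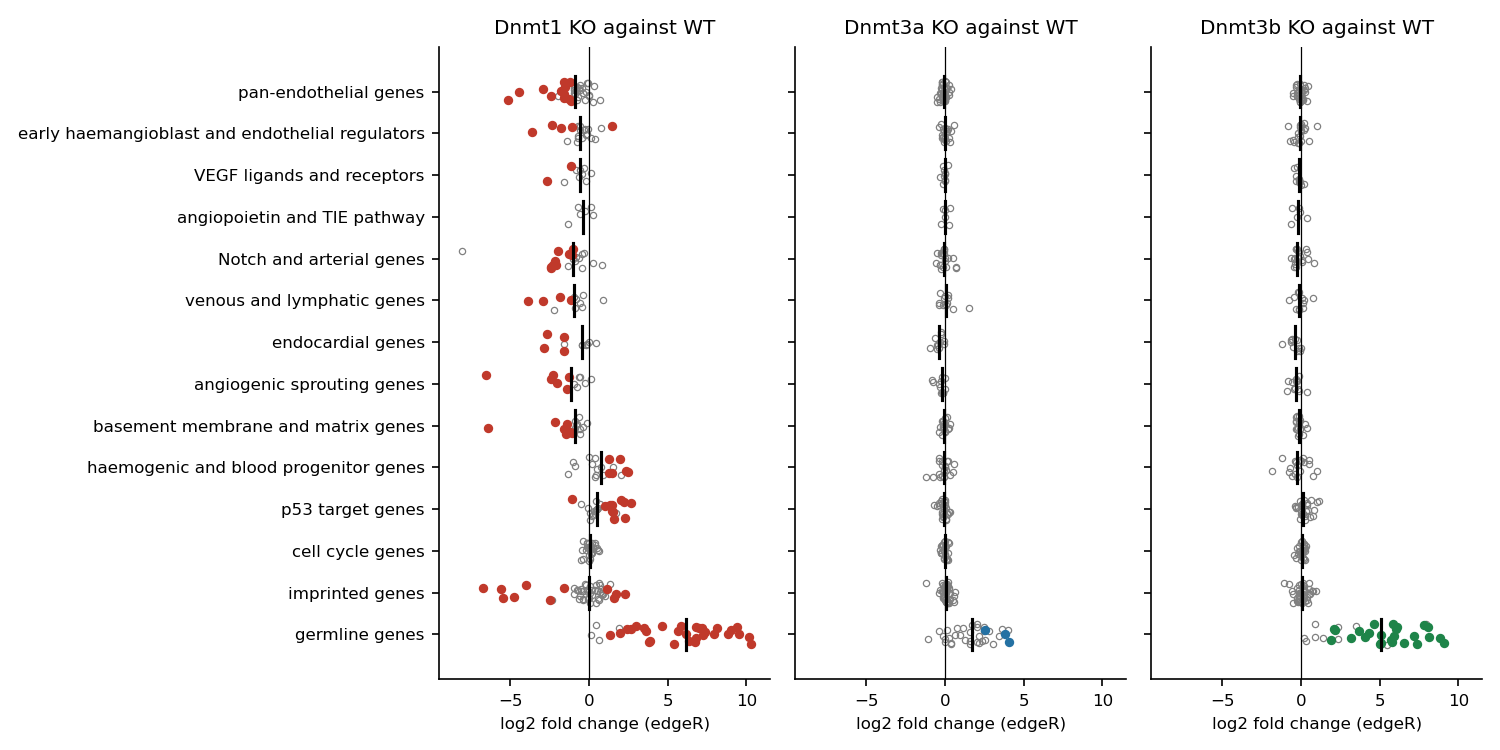
Log2 fold change (edgeR) in endothelial cells of each tested gene of 14 lists, for the 3 KO groups against WT. Filled points passed the test, open points did not, and black bars are list medians, at -0.86 for pan-endothelial and 6.17 for germline genes in Dnmt1 KO and at -0.07 and 1.75 in Dnmt3a KO.

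Of 48 tested imprinted genes, 7 were lower and 4 higher in Dnmt1 KO (median 0.01), 14.6% and 8.33% against the 4.75% and 3.92% of all genes. Cdkn1c, a cell cycle inhibitor expressed from the maternal copy, was at 188 to 550 CPM (median 301) in WT and 1.78, 1.45 and 5.43 CPM in Dnmt1 KO (log2 fold change -6.74 ± 0.41 (SE), adjusted p = 2.03e-09). Grb10, an inhibitor of insulin signalling, was at 117 to 203 CPM (median 160) and 2.67, 1.99 and 5.22 CPM (log2 fold change -5.48 ± 0.26 (SE), adjusted p = 6.87e-11). Igf2r (log2 fold change -2.46 ± 0.24 (SE), adjusted p = 6.45e-07) and Dlk1 (log2 fold change -3.96 ± 0.45 (SE), adjusted p = 3.66e-06) were lower as well. Impact, a paternally expressed gene, was at 27.4 to 43.2 CPM (median 33.3) in WT and 97.2, 103 and 119 CPM in Dnmt1 KO (log2 fold change 1.75 ± 0.12 (SE), adjusted p = 5.4e-09).

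Of 26 tested p53 targets, 10 were higher and 1, Plk2, was lower (median 0.54), 38.5% and 3.85% against the 3.92% and 4.75% of all genes. Ccng1, a cyclin-like target, was at 15 to 19.9 CPM (median 18.2) in WT and 41.8, 52.6 and 53 CPM in Dnmt1 KO (log2 fold change 1.59 ± 0.20 (SE), adjusted p = 9.58e-06). Trp53inp1 (2.31), Eda2r (2.25) and Pvt1 (1.49) were higher too, all without overlap. None of 28 cell cycle genes passed (median 0.08). Cenpf (0.62), Top2a (0.49), Rrm2 (-0.48) and Cdk1 (-0.44) had the smallest p among them. On thinned counts 0 p53 targets were higher. Of the primed pluripotency genes that the study named, 3 could be tested and Slc7a3 was higher (33.3% against the 3.92% of all genes).

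Of 6 extraembryonic genes that the study named on these and related embryos, which are no independent evidence, Trap1a, Rhox5, Xlr3a and Ascl2 were higher, 66.7% against the 3.92% of all genes. Trap1a, an X-linked gene of the placenta, was at 1.96 to 22.3 CPM (median 8.95) in WT and 310, 304 and 279 CPM in Dnmt1 KO (log2 fold change 4.90 ± 0.78 (SE), adjusted p = 0.000123), and the X-linked homeobox gene Rhox5 at 12.1 to 80.8 CPM (median 25.3) and 295, 383 and 357 CPM (log2 fold change 3.45 ± 0.64 (SE), adjusted p = 0.000507). Xlr3a, whose tags could be shared with its copies, changed by 2.58, and Ascl2, a trophoblast factor, by 2.27, with overlap between the groups. Without Dnmt1 KO 2 the change of Ascl2 was 0.98 (adjusted p = 0.248). Of the methylation machinery, 0 of 18 genes were higher, and Mbd2, a reader of methylated DNA, was lower with Dnmt1 (log2 fold change -1.74 ± 0.16 (SE), adjusted p = 4.02e-07), while Dnmt3b had a log2 fold change of 0.43 (adjusted p = 0.00674). Of 20 housekeeping genes only B2m passed (log2 fold change -1.15 ± 0.21 (SE), adjusted p = 0.000478), and not without Dnmt1 KO 2 (-0.99). The share lower was 5% of the housekeeping genes, near the 4.75% of all genes, and 11.1% of the methylation machinery.

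The effect of each KO in endothelial cells was then set against its effect in the other cells of the same embryos, those with under 5% globin and at most 1 rule marker, in 1 model with the embryo as a block. The make-up of these other cells can itself differ between groups. Of 15675 genes, the Dnmt1 KO effect was more positive in endothelial cells for 322 (2.05%) and more negative for 524 (3.34%). The counts were 2 (0.0128%) and 0 (0%) for Dnmt3a KO and 3 (0.0191%) and 1 (0.00638%) for Dnmt3b KO, by edgeR, where 5806, 848 and 1116 genes had an unadjusted p under 0.05.

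Of the 36 pan-endothelial genes, 10 had a more negative Dnmt1 KO effect in endothelial cells and 1, Ptprb, a more positive one. Over all genes these shares were 3.34% and 2.05%. Because the rule markers chose both sets of cells, weakly marked endothelial cells can fall among the other cells, and their part was not tested. Cd93 differed by -3.0 ± 0.28 (SE), adjusted p = 1.27e-06, on the log2 scale, and was at 0.34 CPM in WT and 0.48 CPM in Dnmt1 KO other cells. Dll4 differed by -3.45 ± 0.44 (SE), adjusted p = 2.53e-05, Sox17 by -2.43 ± 0.33 (SE), adjusted p = 4.53e-05, and Mmrn2 by -1.86 ± 0.29 (SE), adjusted p = 0.000163. Sox17, which the gut endoderm also expresses, went from 14.3 to 26.6 CPM in other cells. In other cells Dll4 went from 0.11 to 0.24 CPM and Mmrn2 from 1.63 to 1.75 CPM. Emcn was at 0.17 CPM in WT and 0.009 CPM in Dnmt1 KO other cells and did not pass (-1.09 ± 3.35 (SE), adjusted p = 0.852).

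Of the lists of vessel genes the matrix genes had the lowest median difference, with 10 of 17 more negative and 0 more positive (median -1.41 against -0.03 over all genes). Over all genes 3.34% were more negative and 2.05% more positive. Vim was at 115 CPM in WT and 126 CPM in Dnmt1 KO other cells and differed by -1.44 ± 0.28 (SE), adjusted p = 0.000906. Col4a1 went from 121 to 145 CPM in other cells and differed by -1.46 ± 0.18 (SE), adjusted p = 1.59e-05, and Hspg2 differed by -1.27 ± 0.19 (SE), adjusted p = 0.000119. The mean level of each of the 3 in other cells was not lower in Dnmt1 KO than in WT. Without Dnmt1 KO 3 the difference of Vim was -0.84 and did not pass.

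Among genes with at least 20 CPM in the higher group of endothelial cells, the 5 most negative differences were those of Igfbp3 (-4.68), a binding protein of insulin-like growth factors, Fmo1 (-4.30), a monooxygenase, Fxyd5 (-3.54), Gja4 (-3.53), an arterial gap junction protein, and Mcam (-3.21), an adhesion molecule. Fmo1 was at 24.3 to 34.8 CPM (median 27.8) in WT members and 3.02, 2.17 and 0.63 CPM in Dnmt1 KO members (log2 fold change -3.67 ± 0.25 (SE), adjusted p = 6.17e-09), and went from 10.2 to 12.9 CPM in other cells. Igfbp3 was at 26.7 to 70.8 CPM (median 52.2) in WT and 1.24, 0.36 and 0.83 CPM in Dnmt1 KO members (log2 fold change -5.81 ± 0.63 (SE), adjusted p = 2.2e-06). Neither overlapped between the groups, and in other cells Igfbp3 went from 5.41 to 2.18 CPM.

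Under the same limit the 5 most positive were Fgf3 (3.54), Trap1a (3.51), Sycp1 (3.41), Tnni3 (3.25) and Myl7 (2.89). Fgf3, a secreted growth factor, was at 4.73 to 10.6 CPM (median 7.48) in WT members and 67.7, 55.8 and 44.5 CPM in Dnmt1 KO members (log2 fold change 2.98 ± 0.27 (SE), adjusted p = 3.14e-07), and at 12.3 and 7.29 CPM in other cells. Tnni3, the cardiac troponin I, was at 1.96 to 11.6 CPM (median 3.78) in WT and 30.03, 30.5 and 28.4 CPM in Dnmt1 KO members (log2 fold change 2.78 ± 0.41 (SE), adjusted p = 5.8e-05). The myosin light chain Myl7 did not pass in endothelial cells (0.45) and went from 308 to 79 CPM in other cells. Of 9 cardiomyocyte genes, Myl7, Tnnt2, Tnni1 and Nkx2-5 had a more positive difference and 0 a more negative one (median 2.83). None of the 9 had passed in the members themselves. Cardiomyocyte genes summed to 51.8 to 445 CPM in WT members and 184 to 329 CPM in Dnmt1 KO members, and their part in the differences of Tnni3 and Myl7 was not tested. Of the 19 blood progenitor genes, Ikzf2 (1.81), Myb (1.78) and Gfi1b (2.08) had a more positive effect in endothelial cells, and Runx1 did not pass (0.13). Of 26 p53 targets 0 were more positive and 3 more negative. Over all genes 2.05% were more positive and 3.34% more negative.

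**Figure D5:**
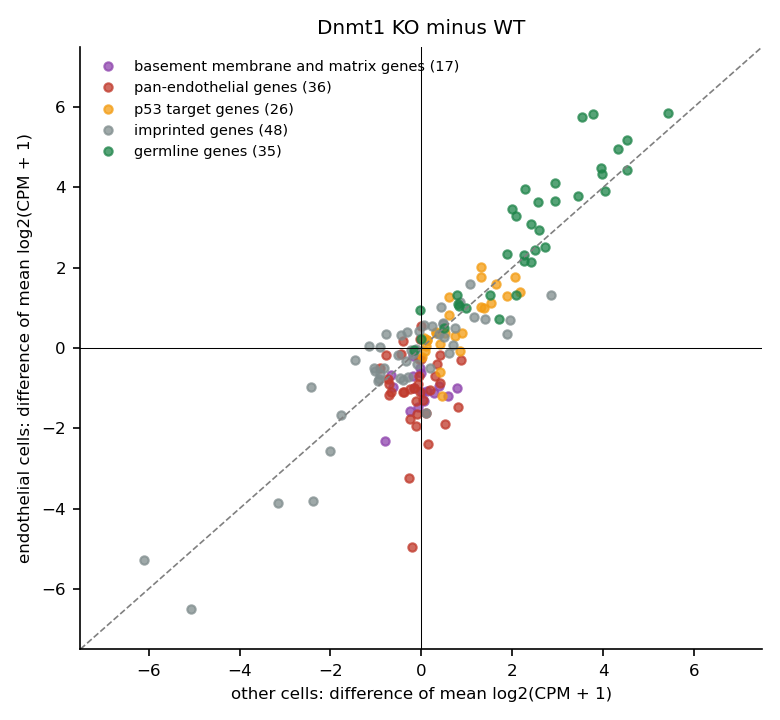
Dnmt1 KO minus WT difference of mean log2(CPM + 1) in endothelial cells (y axis) and in other cells of the same embryos (x axis) for the tested genes of 5 lists. Below the diagonal lie 16 of 17 matrix and 30 of 36 pan-endothelial genes, with a median of the y minus the x value of -1.19 and -0.80, and imprinted genes lie about it, at 0.11.

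In Dnmt3a KO endothelial cells 0 genes of the 11 lists of endothelial identity, vessel signalling, matrix and blood progenitors passed. Of all genes 0.0627% were higher and 0% lower, so this count is near that share and is no result about the lists. The pan-endothelial median was -0.07. Flt1, among those with the smallest p, was at 117, 125, 115 and 136 CPM against 125 to 182 CPM (median 147) in WT (log2 fold change -0.30 ± 0.14 (SE), adjusted p = 0.877). The 8 higher genes were Tex15, Stk31, Tex19.1, S100a16, Fbp2, Rec114, Slc9b1 and Xlr, the last 4 of them named after their values were seen. S100a16, a calcium-binding protein, was at 25.7 to 58.4 CPM (median 40.6) in WT and 114, 118, 156 and 128 CPM in Dnmt3a KO (log2 fold change 1.64 ± 0.25 (SE), adjusted p = 0.00538). The gluconeogenic enzyme Fbp2 was at 1.22 to 3.2 CPM (median 1.75) and 9.31, 8.9, 22.5 and 9.57 CPM (log2 fold change 2.52 ± 0.29 (SE), adjusted p = 0.000277), and the meiotic gene Rec114 at 0 to 1.15 CPM (median 0.52) and 4.27, 4.69, 7.59 and 3.66 CPM (log2 fold change 2.91 ± 0.46 (SE), adjusted p = 0.00814). Slc9b1, a sodium-proton exchanger of sperm, changed by 2.23 and Xlr, an X-linked gene with near-identical copies, by 2.42. All 4 Dnmt3a KO libraries were above all WT libraries for each of the 8, as they were for 0.714% of all genes. Tex15, Stk31 and Fbp2 passed with any 1 library left out, and the other 5 did not.

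The Dnmt3a effect was more positive in endothelial than in other cells for Tex15 (1.63 ± 0.20 (SE), adjusted p = 0.00209) and Tex19.1 (2.25 ± 0.32 (SE), adjusted p = 0.00941). Tex15 went from 5.05 to 9.74 CPM in other cells. With the replicate number of the labels as a block, the Dnmt3a comparison called 0 genes.

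In Dnmt3b KO endothelial cells 0 genes of these 11 lists passed either, near the 0.674% of all genes that were higher and the 0.00784% that were lower. The pan-endothelial median was -0.04. Cd93 was at 42.8, 25 and 25.7 CPM against 35.3 to 50.5 CPM (median 44.4) in WT (log2 fold change -0.48 ± 0.16 (SE), adjusted p = 0.19), and Egfl7, a secreted endothelial factor, at 666, 708 and 743 CPM against 392.3 to 646 CPM (median 521) (log2 fold change 0.42 ± 0.17 (SE), adjusted p = 0.325). All Dnmt3b KO libraries lay above WT for Egfl7, without passing, and Cd93 overlapped. Of the 35 tested germline genes 25 were higher (median 5.09), 71.4% against the 0.674% of all genes, a count that describes them only, since they passed the filter through the libraries where they are high. Rpl39l was at 39.99, 88.9 and 125 CPM in Dnmt3b KO 1+2, 11 and 12 (log2 fold change 5.12 ± 0.42 (SE), adjusted p = 1.38e-06), and Sycp1 at 5.97, 23.3 and 37.1 CPM (log2 fold change 7.81 ± 0.56 (SE), adjusted p = 2.82e-07). The testis ADP/ATP carrier Slc25a31 was at 13.5, 19.9 and 56.3 CPM (log2 fold change 6.03 ± 0.55 (SE), adjusted p = 2.52e-06). All 3 were higher in every Dnmt3b KO library than in WT, and highest in the library labelled Dnmt3b KO 12.

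The library labelled Dnmt3b KO 12 decided the size of several differences. Dazl, an RNA-binding protein of germ cells, was at 0 to 0.53 CPM (median 0.29) in WT and 2.13, 17.6 and 260 CPM in Dnmt3b KO (log2 fold change 8.13 ± 0.99 (SE), adjusted p = 5.12e-05). Sohlh2 had 0 UMIs in WT members and was at 1.21, 1.66 and 94 CPM, at least 512-fold higher over the group, and without that library it was at least 28.9-fold higher and did not pass (adjusted p = 0.0112), nor did it with any 1 WT, Dnmt1 KO or Dnmt3a KO library left out. The tubulin gene Tuba3b, near-identical to Tuba3a so that tags could be split between them, was at 2.33, 4.6 and 73.1 CPM and Tuba3a at 2.33, 10.5 and 30.6 CPM. The X-linked homeobox gene Rhox6, from a family of close copies, was at 0 to 2.1 CPM (median 1.59) in WT and 6.88, 6.75 and 48.3 CPM. In each case that library was the highest by a wide margin. Without the library labelled Dnmt3b KO 12, 53 genes passed in place of 87, and 19 of the germline genes in place of 25, at a median of 3.42. The log2 fold change of Dazl was then 4.96, that of Sycp1 7.26, that of Rpl39l 4.75 and that of Slc25a31 5.22. Tex19.1 was at 4.64, Stk31 at 3.70, Tex15 at 2.11, Taf7l at 6.72 and Ahcy at -1.56, all of which passed, whereas Rhox6 (2.27) and Xlr3a (2.29) did not. For the tubulin genes WT members held 2 UMIs of Tuba3b and 1 of Tuba3a, and the ratio of pooled UMIs was 650 (95% exact interval 179 to 5380, for counting error only) for Tuba3b and 767 (137 to 30387) for Tuba3a. Without the library the ratios were 105 (27.9 to 881) and 389 (68.6 to 15471), and both genes passed.

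Other genes differed less among the Dnmt3b KO libraries. Taf7l, a germline TFIID subunit on the X chromosome, was at 3.24, 3.33 and 2.26 CPM (log2 fold change 6.55, adjusted p = 2.52e-06). All WT members together held 1 UMI of Taf7l, so the size of its increase was poorly bounded. The ratio of pooled UMIs was 181 (95% exact interval 31.6 to 7247, for counting error only). Xlr3a was at 7.29, 8.8 and 12.7 CPM (log2 fold change 2.52 ± 0.42 (SE), adjusted p = 0.00208). The 1 gene that was lower, Ahcy, hydrolyses the by-product of methylation reactions and was named after its values were seen. It was at 14.7 to 22.8 CPM (median 18.6) in WT and 6.88, 5.87 and 7.9 CPM in Dnmt3b KO (log2 fold change -1.46 ± 0.19 (SE), adjusted p = 0.000118), and its effect in other cells was of the same size (difference 0.03). All 3 Dnmt3b KO libraries were below all WT libraries. Of the 86 higher genes 25.6% were X-linked, against 3.83% of the genes tested, and several of them were related copies of the Xlr and Rhox families.

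The Dnmt3b effect was more negative in endothelial than in other cells for Mrc1 (-2.45 ± 0.29 (SE), adjusted p = 0.000738), the mannose receptor of early endothelium and macrophages, and more positive for 3 genes, among them Tex19.1 (2.79 ± 0.32 (SE), adjusted p = 0.000738). Mrc1 was at 28.3, 20.2 and 32.3 CPM in Dnmt3b KO members against 21.9 to 36 CPM (median 28.6) in WT, with overlap, and at 0.18 CPM in WT and 0.9 CPM in Dnmt3b KO other cells.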

How the data were processed

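The deposited matrices hold raw UMI counts per gene and cell barcode, which the authors made with Cell Ranger (10x 3′ v3, mm10). The study gives version 5.0.0 for its 10x data. Of the file headers, that of the library labelled Dnmt3b KO 12 named version 5.0.0, and the other 17 did not. Human genes, which 4 matrices also list, were not used. The members, gene lists and tests were chosen with earlier results of these data known.

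Barcodes with 3000 or more UMIs were kept. Counts of members were summed per embryo, with Dnmt3b KO 1 and 2 summed as 1 library, and libraries needed 25 members. Genes passing filterByExpr were tested with glmQLFit and glmQLFTest of edgeR 4.0.16 (R 4.3.3, TMM scaling) in 1 model over the 4 groups, with Benjamini-Hochberg adjustment over all genes fitted. The 12 genes of the member rule were left out of counts. Doublets were the kept cells of a library with the highest Scrublet scores (scanpy 1.11.5, Python 3.11.15), up to a share of 0.8% per 1000 kept cells. Intervals are 95% Clopper-Pearson. Thinning drew 3000 UMIs per cell. Gene positions came from GENCODE and promoters from RefSeq.

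In each list up to 4 genes with the smallest p were named, with up to 8 higher and 8 lower genes of the largest fold change (at least 20 CPM in the higher group and no overlap with WT) and up to 5 in each direction of the comparison with other cells. Genes named Gm or Rik, Y-linked genes, Xist and Tsix were passed over. Some genes that this rule picked from lists with no call are given only as counts and medians. On simulated counts with the Dnmt1 KO design (12543 genes) 76.8%, 88.7% and 93.8% of genes changed by 1.5, 2 and 3 on the log2 scale were called.

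Alternatives were DESeq2 1.42.0, no low-count filter, a replicate block, covariates for the Y-linked level and the reference, WT with 1 KO group only, Dnmt3b KO 1 and 2 apart, thinned members, at least 5 or 6 markers (6 added after seeing the data), the quality filter of the study (30% mitochondrial, 35% ribosomal), doublets left out, members with 3 markers of another class left out, other cells defined as all non-members, and each library left out in turn. Deviations from the group means were correlated by -0.25 to 0.17 between same-numbered libraries. Differently numbered pairs were not computed, so these values cannot show whether replicate numbers pair the embryos.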

Additional observations from a re-analysis of the deposited data

Results flagged for a closer look

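In 119 groups of 4 to 10 libraries, 16 values in endothelial cells stood apart by Dixon's criterion, which chance meets in about 1 of 20 groups. In WT these were Angpt1 in WT 1 (6.97 CPM against 1.92 to 4.02 CPM in the others), Npr3 in WT 5 (58.9 against 17.2 to 27.1 CPM), Trp53inp1 in WT 5 (4.53 CPM), Tnni3 in WT 1 (11.6 CPM), Usp26 in WT 6 (1.59 CPM) and, all in WT 7, Klf1 (6.27 CPM), Xlr3a (4.88 CPM), Tex19.1 (2.44 CPM) and Slc9b1 (3.83 CPM). For Rpl10l and Rhox13 in WT 4 (0.0851 CPM each), Tex13b and Tuba3a in WT 2 (0.143 CPM each) and Taf7l in WT 7 (0.174 CPM) the value was 1 UMI in the 1 WT library that had any. Fbp2 stood apart in Dnmt3a KO 13 (22.5 CPM against 8.90 to 9.57 CPM), and the thinned share of endothelial cells in Dnmt3a KO 2 (0.463% against 1.18% to 1.29%).

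For 34 named genes the Dnmt1 KO effect differed between endothelial and other cells of the same embryos, tested as an interaction in edgeR and given as endothelial minus other on the log2 scale. Among endothelial genes these were Cd93 (-3.0), Mmrn2 (-1.86), Flt1 (-1.14), Foxo1 (-1.0), Dll4 (-3.45), Sox17 (-2.43), Eng (-1.79), Gja4 (-3.53), Mcam (-3.21) and, with a positive sign, Ptprb (1.55). Sprouting and matrix genes were Plaur (-3.10), Cd276 (-1.14), Apln (-2.78), Col4a1 (-1.46), Vim (-1.44) and Hspg2 (-1.27). Blood progenitor and erythroid genes were Ikzf2 (1.81), Myb (1.78), Gfi1b (2.08), Klf1 (2.15) and Cited4 (2.26).

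The rest were Sycp1 (3.41), Tex19.1 (2.84), Grb10 (1.03), Trap1a (3.51), Xlr3a (1.37), Ascl2 (-2.28), B2m (-1.28), Igfbp3 (-4.68), Fmo1 (-4.30), Fxyd5 (-3.54), Fgf3 (3.54), Tnni3 (3.25) and Myl7 (2.89). In Dnmt3a KO the effect differed for Tex15 (1.63) and Tex19.1 (2.25), and in Dnmt3b KO for Tex19.1 (2.79) and Mrc1 (-2.45). The other cells differ in make-up between groups, and the part of this in the differences was not tested. Without any 1 of several libraries the differences of Foxo1, Gfi1b, Cited4, Myl7 and, in Dnmt3a KO, Tex19.1 did not pass, nor did those of Flt1 (-0.77) and Vim (-0.84) without Dnmt1 KO 3, that of Ascl2 (-1.77) without Dnmt1 KO 2, Myb without Dnmt1 KO 1 (1.84) or 2 (1.5), Xlr3a without Dnmt1 KO 2 (1.38) or 3 (1.19), Grb10 without WT 1 (0.99) or Dnmt1 KO 3 (1.03), Tex15 (1.59) without Dnmt3a KO 1 and Mrc1 (-2.35) without Dnmt3b KO 11.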

How the results depend on the processing

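The count of genes called in Dnmt1 KO endothelial cells, 1106, was 148 with members chosen on thinned counts, where 27 cells of Dnmt1 KO 2 were the only Dnmt1 KO library with enough members and were assumed to vary like the other groups, and 850 to 1199 with 1 library left out. It was within 1.5 times under the other alternatives, except that leaving out members with 3 markers of another class left no Dnmt1 KO library. The difference from other cells, 846 genes, was 529 (without Dnmt1 KO 2) to 1063 (without Dnmt1 KO 3) with 1 library left out. With the replicate number as a block the count was 1002.

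The Dnmt3a count of 8 was 20 by DESeq2, 18 without a low-count filter, 15 with the Y-linked covariate, 3 with the reference covariate, 3 on thinned counts, 5 with at least 6 markers, 5 with Dnmt3b KO 1 and 2 apart, 0 with the replicate block, 0 with other-class members left out, and 3 (without any of WT 3 to 6 or Dnmt3a KO 2 or 13) to 23 (without WT 2) with 1 library left out. The Dnmt3b count of 87 was 4 with the replicate block, 147 with the Y-linked covariate, 51 with only WT and this group, 38 on thinned counts, 7 with other-class members left out, and 53 (without the library labelled Dnmt3b KO 12) to 119 with 1 library left out. The differences from other cells, 2 genes for Dnmt3a and 4 for Dnmt3b, were 4 and 10 without a filter, and with 1 library left out 0 (without Dnmt3a KO 1) to 2 and 1 (without Dnmt3b KO 11) to 7 (without WT 2). Shares of members on thinned counts were 0.582% in Dnmt1 KO, 0.911% in Dnmt3b KO, 1.04% in Dnmt3a KO and 1.14% in WT, and the share of Dnmt3b KO was 2.72% with at least 5 markers. The cause of these shifts was not tested.

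Of 103 called values of named genes in Dnmt1 KO, 57 missed the threshold under at least 1 alternative and 0 reversed. In Dnmt3a KO 10 of 10 and in Dnmt3b KO 12 of 16 missed it at least once. The reversed values belonged to genes that had not been called: Fli1 in Dnmt1 KO on thinned counts (0.27), Dnmt3a (0.31) and Egfl7 (-0.038) in Dnmt3b KO with the replicate block, and Mrc1 in Dnmt3b KO with other-class members left out (0.19). With 3 to 7 embryos a group, p-values measure the spread between embryos, and sex was nearly confounded with Dnmt1 KO and Dnmt3a KO. In bulk sums of members, fewer cells with a transcript and less of it per cell cannot be told apart.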
